A study of Mus musculus with 4 samples.

Results

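The members described here are the variable (V) segments of the immunoglobulin heavy chain, chosen as the reference genes whose name is Ighv followed by a digit. The rule found 185 rows with 183 gene names among 54728 gene rows in the KO polyp table, 54726 in the WT polyp table, 54700 in the KO non-polyp table and 54724 in the WT non-polyp table. Ighv1-13 and Ighv5-8 have a pair of rows each, all of them at 0, and the 183 names are counted below. In the GENCODE annotation of GRCm38, 113 of these names are V genes and 70 are pseudogenes, and the number after Ighv places them in 16 families, of which Ighv1 is the largest with 92 names. The 183 segments lie on the minus strand of chromosome 12 between 113572927 and 116010093, a stretch of 2437 kb that begins with Ighv5-1, the segment nearest to the diversity (D) and joining (J) segments, and ends with Ighv1-86.

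RNA sequencing compared colon and rectum tissue of mice kept free of microbes (germ-free) that lacked Clec7a (Clec7a-/-, KO) or were wild type (WT). Clec7a encodes Dectin-1, a receptor of myeloid cells for beta-glucans, and the purpose of the study was to learn how Dectin-1 acts in intestinal tumour development. All groups shared the same treatment, the carcinogen AOM (azoxymethane) followed by 1% DSS (dextran sodium sulfate, which injures the colon lining) in 3 cycles, and tissue was taken at week 36; the labels give no age. The groups were KO polyp, WT polyp, KO non-polyp and WT non-polyp, with 1 library each, for which the RNA of several mice had been pooled. KO mice had been backcrossed to C57BL/6J. Germ-free WT mice were purchased, whereas the germ-free KO line was started from pups delivered by caesarean and fostered by WT mothers, so genotype and origin cannot be told apart. The study's text is not uniform on whether germ-free KO mice formed polyps, and KO polyp is therefore used below as the label of a library. Since a group is 1 library, no replicate error exists, no test was possible and every difference is one between pools. Levels are in TPM, a count of transcripts scaled to length and to a fixed library total. A segment counts as higher or lower past a log2 ratio (of TPM + 1) of 1 or -1, the threshold of the study's methods.

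A heavy chain gene is put together in a developing B cell, where the RAG1 and RAG2 enzymes join 1 V segment to a D and a J segment. The chosen V segment supplies most of the antigen-binding domain and stays fixed in all daughters of that cell, apart from point mutations added in germinal centres. Plasma cells, which are plentiful in the gut and there mainly make IgA, transcribe the joined gene at a very high rate, so that a few expanded clones can dominate the V segments read in a tissue. Transcripts that differ by such mutations, or that come from near-identical segments, are harder to assign to a germline segment than transcripts of ordinary genes.

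The most abundant segment was a different one in each library. The last 300 bases of the germline transcript of these 4 segments (GENCODE vM21, GRCm38) are shown as the sequences behind these leading names. Capitals mark the end of the segment from the codon of the second conserved cysteine, next to which the segment is joined to D and J segments and the third complementarity-determining region begins. Ighv9-3 led in the KO polyp library and lies at chr12:114140692-114141122.
Ighv9-3: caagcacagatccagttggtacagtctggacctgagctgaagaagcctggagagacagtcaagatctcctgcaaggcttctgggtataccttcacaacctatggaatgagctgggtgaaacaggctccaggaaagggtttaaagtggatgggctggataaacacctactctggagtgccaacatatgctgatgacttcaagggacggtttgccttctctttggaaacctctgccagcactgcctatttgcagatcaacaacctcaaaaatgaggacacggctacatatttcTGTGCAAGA
Ighv2-3 led in the WT polyp library and lies at chr12:113611187-113611617, close to the D-proximal end of the V segments.
Ighv2-3: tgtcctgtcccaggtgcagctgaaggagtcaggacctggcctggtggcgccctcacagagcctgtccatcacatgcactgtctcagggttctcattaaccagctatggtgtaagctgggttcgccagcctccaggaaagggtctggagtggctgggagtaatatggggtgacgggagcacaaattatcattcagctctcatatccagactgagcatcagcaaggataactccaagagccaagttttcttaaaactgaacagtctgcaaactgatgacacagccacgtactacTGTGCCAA
Ighv4-1 led in the KO non-polyp library and lies at chr12:113948282-113948796.
Ighv4-1: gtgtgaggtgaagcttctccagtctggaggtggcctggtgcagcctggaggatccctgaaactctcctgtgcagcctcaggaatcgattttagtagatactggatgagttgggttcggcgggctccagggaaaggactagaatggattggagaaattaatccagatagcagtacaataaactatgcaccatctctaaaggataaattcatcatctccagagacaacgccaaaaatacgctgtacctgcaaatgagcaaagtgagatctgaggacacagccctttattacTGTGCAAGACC
Ighv1-59 led in the WT non-polyp library and lies at chr12:115335082-115335514, in the distal part of the locus.
Ighv1-59: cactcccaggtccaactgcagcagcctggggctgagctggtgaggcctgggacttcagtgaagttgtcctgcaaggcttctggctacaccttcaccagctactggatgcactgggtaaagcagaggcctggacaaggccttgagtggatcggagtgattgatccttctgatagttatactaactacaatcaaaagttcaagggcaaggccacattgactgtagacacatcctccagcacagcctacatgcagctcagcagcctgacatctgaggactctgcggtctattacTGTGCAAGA
Pairwise identity of these stretches was between 54.7% for Ighv9-3 with Ighv4-1 and 64.7% for Ighv9-3 with Ighv1-59. No other annotated gene overlapped any of the 4. Over windows of 75 bases, 95.3% of those of Ighv9-3, 92.3% of those of Ighv2-3, 86.5% of those of Ighv4-1 and 83.9% of those of Ighv1-59 occurred in no other Ighv segment.

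Summed over the 183 segments, Ighv TPM was 2176 in the KO polyp library, against 44.9 in the WT polyp library, a 48.4-fold difference. In tissue without polyps it was 1277 in the KO library and 566 in the WT library, a 2.26-fold difference. The libraries thus fell in the order KO polyp, KO non-polyp, WT non-polyp, WT polyp, and the WT polyp library stood furthest from the others. The KO polyp library held 1.70 times the sum of the KO non-polyp library. The WT polyp library held 0.0793 times that of the WT non-polyp library. In bulk tissue, fewer B lineage cells and less RNA per cell cannot be told apart. As a share of all reference genes, Ighv segments took 0.240% of the TPM in the KO polyp library, 0.00512% in the WT polyp library, 0.144% in the KO non-polyp library and 0.0658% in the WT non-polyp library. Their share of all immunoglobulin TPM varied far less, at 10.0%, 7.28%, 9.29% and 9.63% in the same order.

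Each complete heavy chain transcript also carries a J segment and a constant gene. The 8 constant genes summed to 4585 TPM in the KO polyp library, 148 in the WT polyp library, 3039 in the KO non-polyp library and 1312 in the WT non-polyp library. The 4 J segments summed to 1101, 28.6, 966 and 408 TPM in that order. Constant genes were thus 31.0-fold and J segments 38.5-fold higher in the KO polyp than in the WT polyp library, and 2.32-fold and 2.37-fold higher in the KO non-polyp than in the WT non-polyp library. Ighv TPM per constant-gene TPM was 0.475 in the KO polyp, 0.303 in the WT polyp, 0.420 in the KO non-polyp and 0.432 in the WT non-polyp library. The isotypes beside these sums differed between tissues: Igha, the constant gene of IgA, held 39.7% of the constant-gene TPM in the KO polyp and 65.1% in the WT polyp library, against 93.1% in the KO non-polyp and 91.7% in the WT non-polyp library. Ighm, the constant gene of IgM, held 23.3% in the KO polyp, 26.1% in the WT polyp, 3.27% in the KO non-polyp and 5.65% in the WT non-polyp library, and Ighg2b, an IgG constant gene, held 21.3%, 1.07%, 2.42% and 0.731%. By share, Ighm thus stood beside Igha in both polyp libraries. Its level was 1066 TPM in the KO polyp and 99.5 in the KO non-polyp library. In the WT polyp library Ighm was at 38.7 TPM, below the 74.2 of the WT non-polyp library. Igha was at 96.4 TPM in the WT polyp and 1203.5 in the WT non-polyp library. In the KO polyp library alone Ighg2b also held a large share. The constant-gene TPM of both non-polyp libraries was almost wholly Igha. Which V segment was joined to which constant gene was not measured.

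Markers of B lineage and other cells differed between the libraries too, and their part in the Ighv sums was not tested. All 9 B cell markers, among them Ms4a1, Cd79a and Pax5, were higher in the KO polyp than in the WT polyp library, with list sums of 1296 and 37.2 TPM, while none of the 9 passed the threshold between the KO non-polyp library (46.3 TPM) and the WT non-polyp library (60.0 TPM). Jchain, which joins units of IgA and IgM and marks plasma cells, was at 396 TPM in the KO polyp, 13.4 in the WT polyp, 369 in the KO non-polyp and 110 in the WT non-polyp library. The 9 plasma cell markers as a list summed to 957 TPM in the KO polyp, 569 in the WT polyp, 820 in the KO non-polyp and 525 in the WT non-polyp library. Most of the sum of the WT polyp library came from Txndc5, Sdc1 and Xbp1, at 192, 182 and 166 TPM. The list sums therefore mainly follow these genes. In the polyp pair 5 of the 9 were higher and 2 lower: Sdc1, which epithelial cells also make, was at 71.3 TPM in the KO polyp and 182 in the WT polyp library, and Prdm1 was at 2.75 and 11.4 TPM. In the non-polyp pair 3 of the 9 were higher in the KO library and none was lower. Rag1 and Rag2 were at 0.0353 TPM or less in every library, so transcripts of these recombination enzymes were nearly absent. Dntt, the other gene of the list for lymphocyte precursors, was at 0.566 TPM in the KO polyp and 0.107 in the WT polyp library. It was listed at 0 in both non-polyp libraries. The T cell list summed to 104 TPM in the KO polyp, 17.9 in the WT polyp, 10.6 in the KO non-polyp and 11.2 in the WT non-polyp library. The 4 smooth muscle markers summed to 1142, 319, 3233 and 3482 TPM in the same order. All 4 were higher in the KO polyp than in the WT polyp library. How much muscle was taken along with the tissue was not measured. The 6 markers of colon epithelium summed to 5750, 7570, 6841 and 6044 TPM. Clec7a was at 0.102 TPM in the KO polyp and 0.0766 in the KO non-polyp library, against 31.2 in the WT polyp and 5.97 in the WT non-polyp library, which matches the genotype labels.

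At least 1 TPM was reached by 93 of the 183 segments in the KO polyp library, 9 in the WT polyp library, 67 in the KO non-polyp library and 61 in the WT non-polyp library. At 10 TPM or more stood 45, 1, 23 and 20 segments in that order, and 74, 142, 89 and 99 were listed at 0. A level of 1 TPM corresponded to a mean depth of 1.25 reads per base in the KO polyp, 1.26 in the WT polyp and 1.30 in the WT non-polyp library, and that of the KO non-polyp table could not be worked out. Between 20 and 25 segments per library lay between 0.5 and 2 TPM, where a few reads decide on which side of 1 TPM a segment falls. Read depth times length gave 981 kb of aligned sequence over all segments in the KO polyp library and 266 kb in the WT non-polyp library, against 19.9 kb in the WT polyp library, so that segment values of the WT polyp library rested on the least sequence of these 3. Pseudogenes, which lack an intact reading frame or signal, held 0.412% of Ighv TPM in the KO polyp, 0.143% in the KO non-polyp and 0.159% in the WT non-polyp library and were listed at 0 in the WT polyp library. The KO polyp library alone had pseudogenes at 1 TPM or more, and these were 2 in number, Ighv4-2 and Ighv1-2, named here after their values were seen.

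The 21 segments that were among the 10 most abundant of at least 1 library are described next, beginning with those that led in the KO libraries. Ighv9-3 was at 272 TPM in the KO polyp library, against 0.342 in the WT polyp library, and at 70.4 in the KO non-polyp library, against 12.9 in the WT non-polyp library. Its log2 ratio of 7.67 in the polyp pair was the highest among the 183 segments, and the ratio in the non-polyp pair was 2.36. Ighv6-3 was at 247 TPM in the KO polyp and 0.672 in the WT polyp library, and at 39.1 in the KO non-polyp and 19.3 in the WT non-polyp library, with log2 ratios of 7.21 and 0.98. Ighv9-3 and Ighv6-3 ranked 1 and 2 in the KO polyp library and 5 and 8 in the KO non-polyp library.

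Ighv4-1 was at 154 TPM in the KO polyp and 0.849 in the WT polyp library, and at 257 in the KO non-polyp and 23.7 in the WT non-polyp library. Its log2 ratio of 3.38 was the highest of all segments in the non-polyp pair. Ighv4-1 was lower in the KO polyp than in the KO non-polyp library by less than the threshold (-0.74). Ighv5-17 had the same order, at 60.4 TPM in the KO polyp and 1.16 in the WT polyp library, and at 138 in the KO non-polyp and 32.9 in the WT non-polyp library. Between the KO polyp and KO non-polyp libraries its log2 ratio was -1.18, which makes it 1 of only 3 segments called lower there. Ighv10-1, at 55.3 TPM in the KO polyp, 0.301 in the WT polyp, 80.6 in the KO non-polyp and 16.8 in the WT non-polyp library, and Ighv5-6, at 26.8, 0, 39.1 and 5.32 TPM, likewise stood highest in the KO non-polyp library.

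Ighv1-26 and Ighv5-17 were the 2 segments among the 10 most abundant of all 4 libraries. Ighv1-26 was at 140 TPM in the KO polyp and 3.75 in the WT polyp library, and at 54.4 in the KO non-polyp and 41.9 in the WT non-polyp library, which puts it past the threshold in the polyp pair (log2 ratio 4.89) and not in the non-polyp pair (0.37). Ighv1-53 was at 132 TPM in the KO polyp and 1.02 in the WT polyp library, and at 81.3 in the KO non-polyp and 15.5 in the WT non-polyp library, with log2 ratios of 6.04 and 2.32. Ighv1-72 was at 60.8, 0, 52.2 and 15.1 TPM in the order KO polyp, WT polyp, KO non-polyp and WT non-polyp. Its value is uncertain, because only 28.3% of its windows of 75 bases are its own and most of the others are shared with Ighv1-62-3. Ighv1-82 was at 31.8, 0, 26.6 and 25.6 TPM in the same order and so differed little among the 3 libraries in which it was seen.

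**Figure D1:**
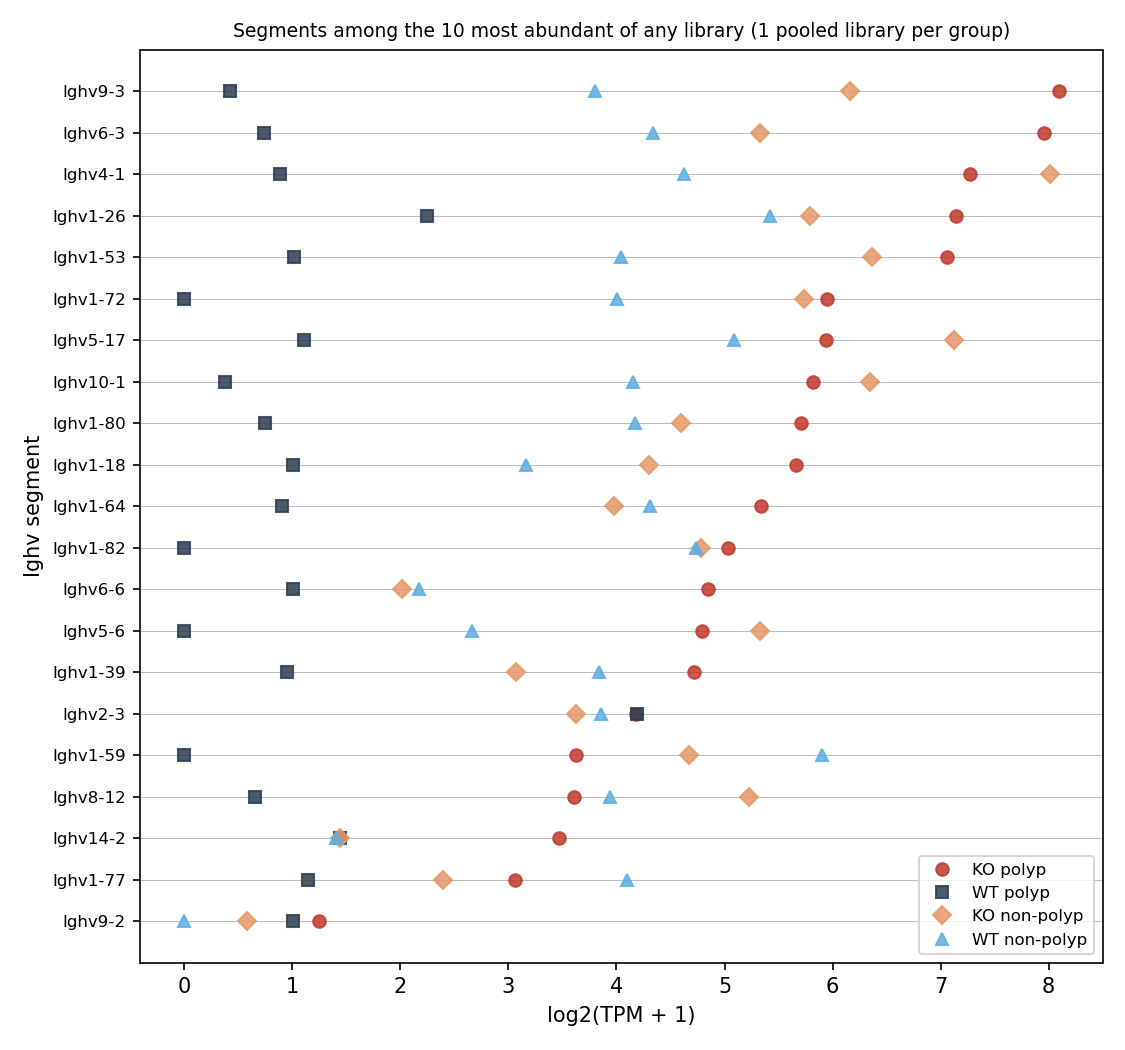
Level of the 21 segments that were among the 10 most abundant in any library, as log2(TPM + 1) on the horizontal axis, with 1 point per pooled library (KO polyp circles, WT polyp squares, KO non-polyp diamonds, WT non-polyp triangles). The WT polyp squares lie left of the circles for every segment except Ighv2-3, where both libraries were at about 17 TPM.

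Ighv2-3 was the exception among the abundant segments. It was at 17.2 TPM in the KO polyp and 17.3 in the WT polyp library, and at 11.3 in the KO non-polyp and 13.5 in the WT non-polyp library. Its log2 ratios were -0.01 in the polyp pair and -0.24 in the non-polyp pair, and it was the single segment whose ratio in the polyp pair was below 0. Read depth on it was 21.4 reads per base in the KO polyp, 21.7 in the WT polyp and 17.5 in the WT non-polyp library. It held 38.4% of Ighv TPM in the WT polyp library, against 0.788% in the KO polyp, 0.886% in the KO non-polyp and 2.38% in the WT non-polyp library. The other 10 segments of the Ighv2 family did not share this pattern and summed to 33.6 TPM in the KO polyp, 1.40 in the WT polyp, 22.3 in the KO non-polyp and 19.4 in the WT non-polyp library. Without Ighv2-3 the Ighv sum of the WT polyp library was 27.7 TPM, against 2159 in the KO polyp library, a 78.1-fold difference, and Ighv TPM per constant-gene TPM in the WT polyp library was 0.187.

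The most abundant segments took unequal parts of each library. The top segment held 12.5% of Ighv TPM in the KO polyp, 38.4% in the WT polyp, 20.1% in the KO non-polyp and 10.4% in the WT non-polyp library. The top 10 held 56.2% in the KO polyp and 66.9% in the WT polyp library, and 66.5% in the KO non-polyp and 47.8% in the WT non-polyp library. The effective number of segments (the inverse of the summed squared shares, which equals the number of segments if all were used equally) was 20.4 in the KO polyp and 6.10 in the WT polyp library, and 13.6 in the KO non-polyp and 27.6 in the WT non-polyp library. In the polyp pair the KO library was thus the more even, and in the non-polyp pair the WT library was. The order in the polyp pair rested on Ighv2-3. Without it the effective number was 20.1 in the KO polyp and 23.2 in the WT polyp library. The share of the top 10 was then 56.6% and 49.5%, so that both orders turned. In non-polyp tissue the effective numbers without it were 13.4 in the KO and 26.7 in the WT library. The low effective number of the KO non-polyp library goes with Ighv4-1 and Ighv5-17, which together with Ighv1-53, Ighv10-1 and Ighv9-3 held 49.2% of its Ighv TPM. To reach 90% of Ighv TPM took 44 segments in the KO polyp, 27 in the WT polyp, 31 in the KO non-polyp and 40 in the WT non-polyp library.

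**Figure D2:**
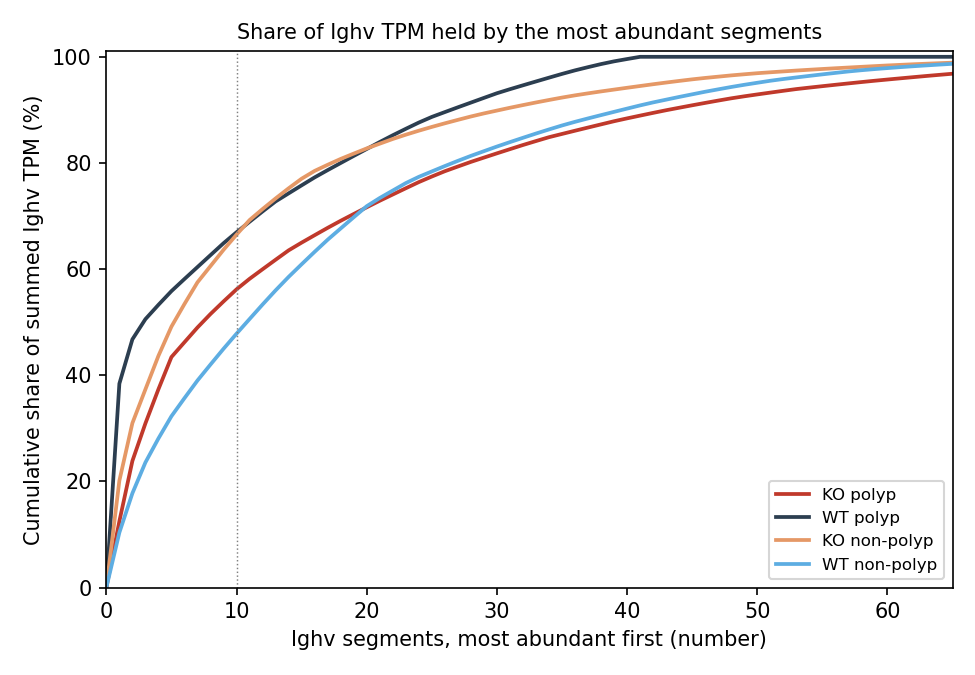
Cumulative share of the summed Ighv TPM (vertical axis, %) against the number of segments counted from the most abundant one, with 1 line per pooled library and a dotted line at 10 segments. At 10 segments the lines stand at 56.2% in the KO polyp, 66.9% in the WT polyp, 66.5% in the KO non-polyp and 47.8% in the WT non-polyp library, and the first step of the WT polyp line is Ighv2-3.

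The libraries shared many of their leading segments. Of the 10 most abundant segments, the KO polyp library shared 8 (80% of each list) with the KO non-polyp library, 6 with the WT non-polyp library and 4 with the WT polyp library. The KO non-polyp and WT non-polyp libraries shared 5, and the WT polyp library shared 3 with the KO non-polyp and 3 with the WT non-polyp library. The top 10 of the KO polyp library, the list whose leaders were Ighv9-3 and Ighv6-3, held 63.9% of Ighv TPM in the KO non-polyp library and 35.9% in the WT non-polyp library. Over all 183 segments, Spearman's rho was 0.88 between the KO polyp and KO non-polyp libraries, 0.84 between the KO non-polyp and WT non-polyp libraries and 0.83 between the KO polyp and WT non-polyp libraries, and between 0.57 and 0.61 for the pairs with the WT polyp library. These values describe segments within pooled libraries, which share their many zeros (86 segments were above 0 in both KO libraries) and, in part, read assignment among similar segments.

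Called by the threshold, 90 of the 183 segments were higher and none was lower in the KO polyp than in the WT polyp library, where 5.06% of all 54611 gene names were higher and 4.29% lower. The segments at 1 TPM or more in either library that were not called were Ighv2-3, Ighv9-2 and Ighv13-2. The median log2 ratio of the 183 segments was 0.88, and that of all gene names was 0. In this pair 68 segments were listed at 0 in the WT polyp library alone and none in the KO polyp library alone, and no fold is given for them.

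Between the KO non-polyp and WT non-polyp libraries, 27 segments were higher and 13 lower, against 0.76% and 0.636% of all gene names. Log2 ratios ran between -2.57 for Ighv13-2 and 3.38 for Ighv4-1, with a median of 0 over the segments and over all gene names. Each of these 27 segments was also called higher in the KO polyp than in the WT polyp library. In that pair 90 of the 93 segments at 1 TPM or more in either library were called higher, so a shared direction tells little. Of the 18793 gene names at that level, 14.7% were called higher in that pair. The share of all gene names called in both pairs was not worked out. A further 52 were higher in the KO polyp library with no call in the non-polyp pair.

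Of the 13 that were lower in the KO non-polyp library, 11 were higher in the KO polyp than in the WT polyp library. Nearly all segments at 1 TPM or more were called higher in that polyp pair. The 5 of these 11 at 5 TPM or more in both pairs were Ighv1-77, Ighv1-85, Ighv5-16, Ighv1-59 and Ighv10-3. Ighv1-59 was at 11.3 TPM in the KO polyp and 0 in the WT polyp library, and at 24.4 in the KO non-polyp and 58.7 in the WT non-polyp library, where it was the most abundant segment. Ighv1-77 was at 7.37 TPM in the KO polyp and 1.21 in the WT polyp library, and at 4.25 in the KO non-polyp and 16.1 in the WT non-polyp library, with log2 ratios of 1.92 and -1.70. Ighv10-3 was at 17.0, 0, 5.34 and 12.0 TPM in the order KO polyp, WT polyp, KO non-polyp and WT non-polyp, Ighv1-85 at 6.03, 0, 1.44 and 5.55, and Ighv5-16 at 5.73, 0, 1.71 and 5.77. In 4 of the 5 the value of the WT polyp library was 0, and no fold is given for these.

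**Figure D3:**
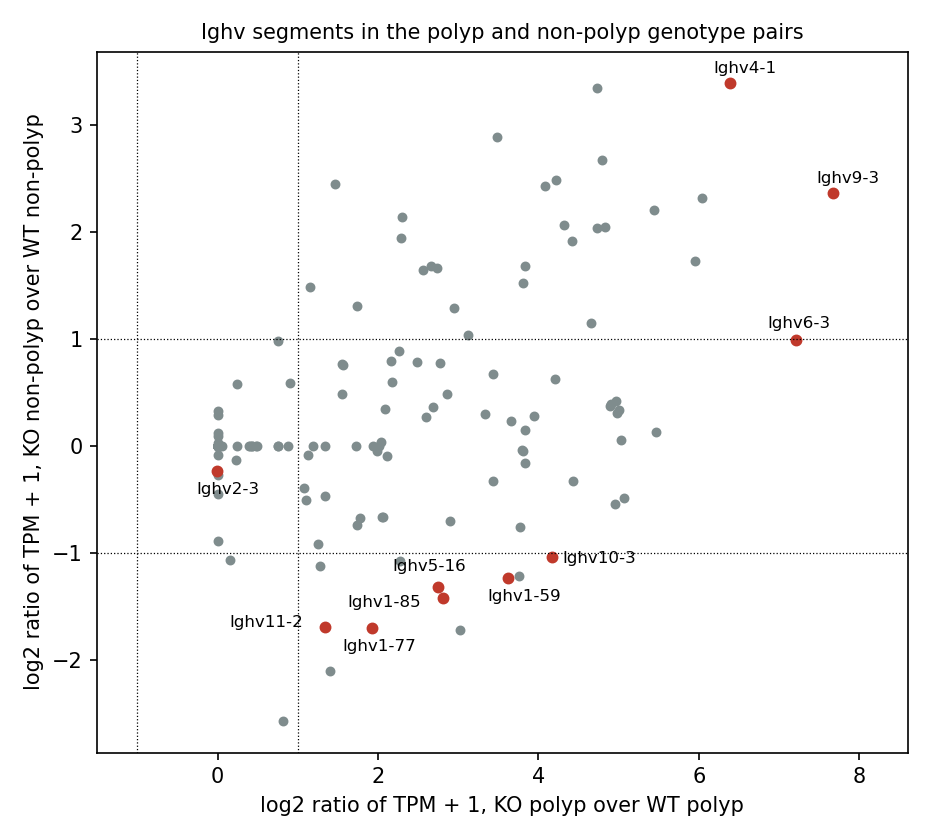
Log2 ratio of TPM + 1 of each of the 183 segments in the KO polyp over WT polyp pair (horizontal axis) and in the KO non-polyp over WT non-polyp pair (vertical axis), with dotted lines at -1 and 1 and 10 of the segments named in the text labelled in red. No point lies left of -1 on the horizontal axis, 27 lie past 1 on both axes, and 11 lie past 1 on the horizontal and below -1 on the vertical axis.

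Within WT mice, 56 segments were lower and 1 was higher in polyps than in non-polyp tissue, against 3.67% and 5.17% of all gene names. The lowest log2 ratio was that of Ighv1-59 (-5.90), at 0 TPM in the WT polyp and 58.7 in the WT non-polyp library, a value set by the added 1 TPM. The 1 called higher was Ighv9-2, at 1.01 TPM in the WT polyp library and 0 in the WT non-polyp library, just past the threshold (1.004) and at about 1 read per base. Ighv14-2, at 1.71 TPM in the WT polyp and 1.65 in the WT non-polyp library, and Ighv2-3 were the top-10 segments of the WT polyp library that differed little between the tissues.

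In the KO polyp library 54 segments were higher and 3 lower than in the KO non-polyp library, against 3.29% and 0.989% of all gene names. Ighv6-3 (log2 ratio 2.63), Ighv6-6 (2.83) and Ighv14-2 (2.03) were among the segments that were higher. Ighv6-6 was at 27.8 TPM in the KO polyp and 3.05 in the KO non-polyp library, and Ighv14-2 at 10.1 and 1.71 TPM. The 3 that were lower were Ighv8-12 (-1.62), Ighv5-17 (-1.18) and Ighv1-59 (-1.04). Ighv8-12 was at 11.2 TPM in the KO polyp and 36.5 in the KO non-polyp library, against 0.573 in the WT polyp and 14.4 in the WT non-polyp library. The 4 comparisons share libraries, each library standing in 2 of them, and their calls are therefore not independent.

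The other segments among the leaders, all but 1 of the Ighv1 family, are given here. Ighv1-80 was at 51.4 TPM in the KO polyp, 0.682 in the WT polyp, 23.1 in the KO non-polyp and 17.1 in the WT non-polyp library. Ighv1-18 was at 49.7, 1.01, 18.8 and 7.94 TPM, Ighv1-64 at 39.3, 0.874, 14.7 and 18.8, and Ighv1-39 at 25.2, 0.929, 7.42 and 13.3 in the same order. Ighv1-64 and Ighv1-39 were thus called higher in the KO polyp than in the WT polyp library and were not called in the non-polyp pair, where both ratios were below 0 (-0.33 and -0.76). Ighv9-2, the sole segment outside that family among them, was at 1.38, 1.01, 0.496 and 0 TPM.

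Ighv7-1, Ighv11-2 and Ighv12-3 are V segments known from B-1 cells, a self-renewing B cell type that makes natural antibodies. Ighv7-1 was at 3.26 TPM in the KO polyp and 0.272 in the WT polyp library, and at 6.77 in the KO non-polyp and 2.14 in the WT non-polyp library. Ighv11-2 was at 1.54 and 0 TPM in the KO polyp and WT polyp libraries, and at 0.361 and 3.41 TPM in the KO non-polyp and WT non-polyp libraries. Ighv12-3 was at 0.683 TPM in the KO polyp library and was listed at 0 in the other 3. None of the 3 was among the 10 most abundant of a library, and Ighv7-1 and Ighv11-2 differed in opposite directions between the KO non-polyp and WT non-polyp libraries (log2 ratios 1.31 and -1.70).

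Family usage differed between the libraries. Ighv1, the largest family, held 45.7% of Ighv TPM in the KO polyp and 33.2% in the WT polyp library, and 39.3% in the KO non-polyp and 57.3% in the WT non-polyp library. Without Ighv2-3 its share was 46.0% in the KO polyp and 54.0% in the WT polyp library. The order in the polyp pair thus again turned on that segment. The gap in the non-polyp pair rested largely on single segments too. Without the most abundant segment of each library, Ighv1 held 49.2% in the KO non-polyp and 52.4% in the WT non-polyp library. Ighv2 held 2.33% in the KO polyp, 41.5% in the WT polyp, 2.63% in the KO non-polyp and 5.81% in the WT non-polyp library, and in the WT polyp library 92.5% of it was Ighv2-3.

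The small families Ighv4, Ighv6 and Ighv9 took large shares in a KO library through 1 segment each. Ighv4 held 7.24% in the KO polyp, 1.89% in the WT polyp, 20.2% in the KO non-polyp and 4.19% in the WT non-polyp library, nearly all of it Ighv4-1. Ighv6 held 12.7%, 3.75%, 3.30% and 4.02% in the same order, and in the KO polyp library 89.7% of it was Ighv6-3. Ighv9 held 13.0%, 4.76%, 5.80% and 3.06%, and in the KO polyp library 96.1% of it was Ighv9-3. Ighv5 held 6.95% in the KO polyp, 3.65% in the WT polyp, 15.8% in the KO non-polyp and 9.67% in the WT non-polyp library, with Ighv5-17 as its leader in all 4. Ighv10 held 3.32%, 0.671%, 6.73% and 5.08% in that order. The segments called higher in the KO polyp than in the WT polyp library were 47 of the 92 in Ighv1, 9 of 21 in Ighv5 and 6 of 11 in Ighv2. Of all 183 segments 49.2% were called higher there, so these counts do not set the 3 families apart. The names counted include pseudogenes, 39 in Ighv1, 11 in Ighv5 and 2 in Ighv2. In the non-polyp pair, 16 Ighv1 segments were higher and 9 lower in the KO library, so segments of 1 family differed in both directions. Of all 183 segments, 14.8% were higher and 7.10% lower in that pair. The only member of Ighv16 was listed at 0 in all 4 libraries.

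**Figure D4:**
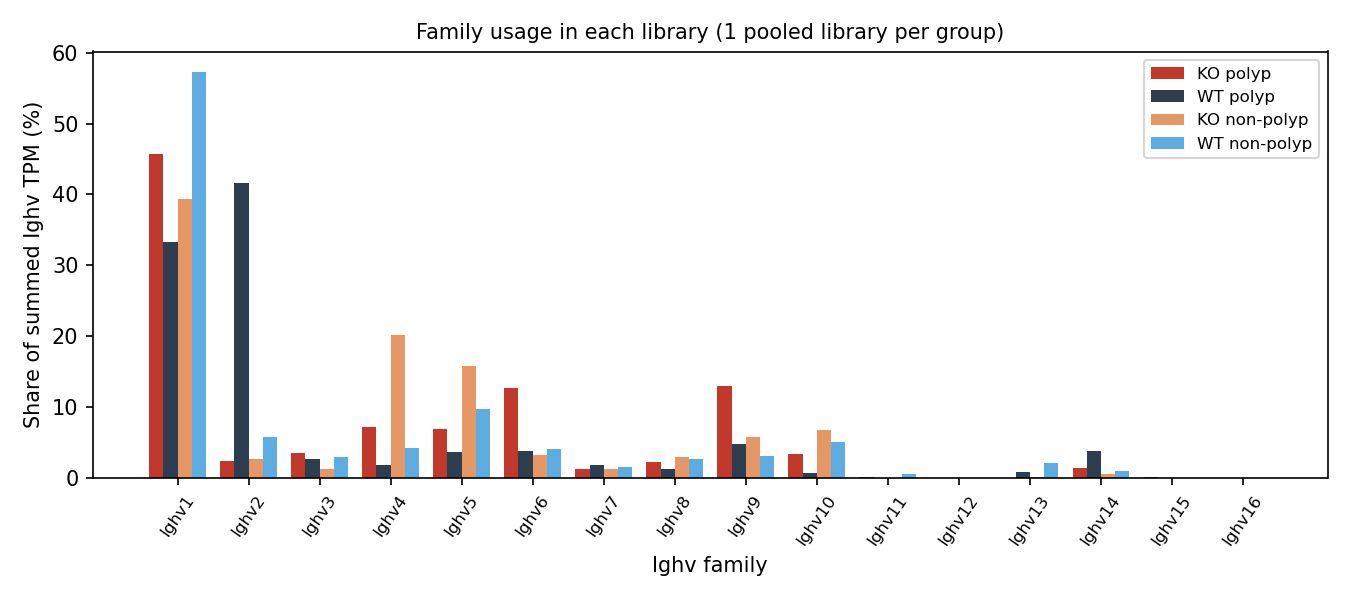
Share of the summed Ighv TPM (vertical axis, %) held by each of the 16 Ighv families, with bars for KO polyp, WT polyp, KO non-polyp and WT non-polyp from left to right and 1 pooled library per bar. Ighv1 is the tallest bar of every library but WT polyp, where Ighv2 stands at 41.5%, and Ighv4 reaches 20.2% in the KO non-polyp library.

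Position along the locus was examined by dividing the 183 names into 3 zones of 61 by order, the proximal zone being nearest to the D segments. The proximal zone, which reaches 742 kb from the start of Ighv5-1, held 35.9% of Ighv TPM in the KO polyp, 60.2% in the WT polyp, 47.5% in the KO non-polyp and 28.7% in the WT non-polyp library. The middle zone held 33.8%, 22.8%, 24.6% and 30.4% in that order, and the distal zone 30.4%, 17.0%, 27.9% and 40.9%. The high proximal share of the WT polyp library rested on Ighv2-3: without it the proximal zone held 35.4% in the KO polyp and 35.3% in the WT polyp library, and 47.0% in the KO non-polyp and 27.0% in the WT non-polyp library, and the distal zone held 27.6% in the WT polyp library. The proximal zone holds Ighv2-3, Ighv4-1, Ighv5-17 and Ighv9-3, and the distal zone holds Ighv1-59. The distal zone thus held more in the WT non-polyp library than in the other 3. Single segments weigh on these shares too: Ighv1-59 alone held 10.4% of Ighv TPM in the WT non-polyp library. Ighv4-1 alone held 20.1% in the KO non-polyp library. Segments at 1 TPM or more were spread over the whole locus, with 35 in the proximal, 26 in the middle and 32 in the distal zone of the KO polyp library, and 4, 3 and 2 in those of the WT polyp library.

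**Figure D5:**
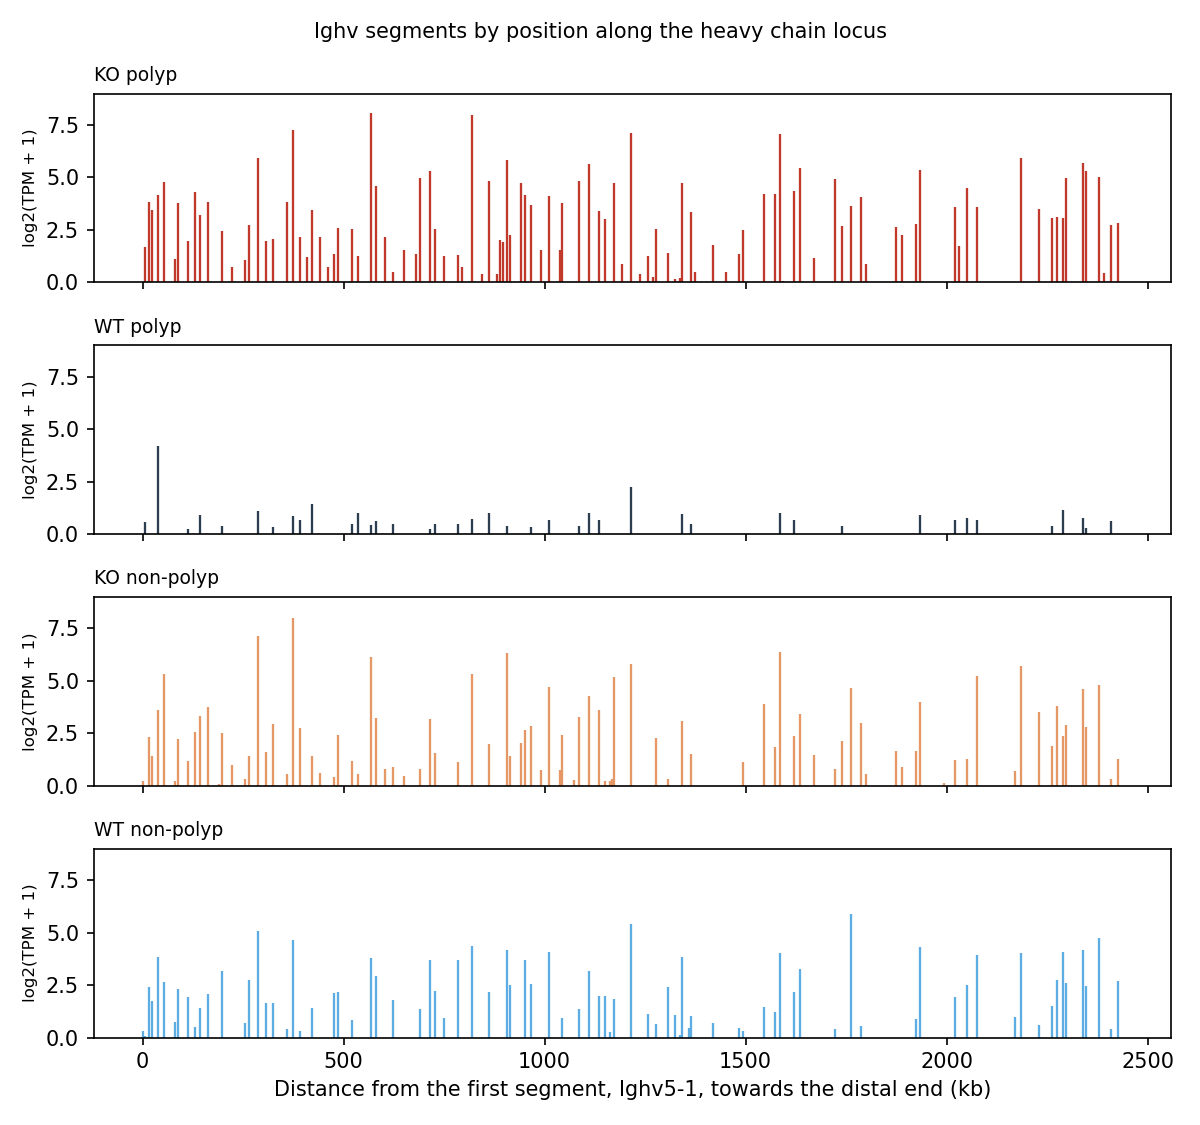
Level of each segment as log2(TPM + 1) (vertical axes) against its distance in kb from Ighv5-1 towards the distal end of the V segments, in 4 panels for KO polyp, WT polyp, KO non-polyp and WT non-polyp from top to bottom. In 3 panels segments are seen along all 2437 kb, while in the WT polyp panel the tallest line is Ighv2-3, near the left end, at 17.3 TPM.

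Similarity between segments limits single values more than sums. Of the 183 segments, 88 shared no window of 75 bases with any other Ighv segment, and in 4 fewer than 50% of windows were their own. Segments with no shared window held 32.6% of Ighv TPM in the KO polyp, 17.6% in the WT polyp, 21.5% in the KO non-polyp and 32.9% in the WT non-polyp library. The 4 least distinct segments held 3.21%, 0%, 4.37% and 2.83% in that order, and Ighv1-72 was the only one of the 27 named segments among them.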

How the data were processed

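RNA sequencing libraries from 4 pools of colorectal tissue, 1 per group, were described; groups follow the labels. The paper's methods name Trimmomatic for trimming, HISAT2 for alignment to GRCm38 (mm10) and StringTie for transcript assembly, run by the authors in Galaxy; versions and the annotation release are not given in the sources used here. The labels and the paper name different library kits, and the sources give different numbers of pooled mice. Values are the TPM of reference genes deposited by the authors. Per the file headers, 3 tables also hold FPKM and a coverage signal (mean reads per base), and list assembled loci that overlap the genes and were left out. The KO non-polyp table holds TPM and, made by the authors, a ratio to Gapdh, which was not used. Read counts are not given, so no counting interval is given.

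TPM was summed per gene name, and log2 ratios were taken of TPM + 1 with a threshold of 1 in size. Annotation and germline transcripts were GENCODE vM21 (GRCm38). The rule for named segments took the 10 most abundant of any library, 3 segments known from B-1 cells, and up to 5 segments at 5 TPM or more in both genotype pairs with calls in opposite directions. Another marker of the B cell list is not reported here. Members and lists were chosen with earlier results of these data known. No test was run, since each group has 1 library. The procedure was checked on simulated data. Alternatives were pseudocounts of 0.1 and 5 TPM, other minimums, 3 scalings, FPKM, the highest entry per name, and leaving out pseudogenes or the most abundant segment. Leaving out Ighv2-3 was added after seeing the data. Python 3.11.15, numpy 2.4.6, pandas 2.3.3, biopython 1.88 and matplotlib 3.10.9 were used.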

Additional observations from a re-analysis of the deposited data

Results flagged for a closer look

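The KO minus WT difference had opposite signs in the polyp and non-polyp pairs for 3 summary values. None of these was tested, because each group has 1 library. For the effective number of segments the KO minus WT difference was 14.3 in the polyp pair and -13.9 in the non-polyp pair. This puts the differences 28.3 apart. The share of the top 10 segments gave a gap of -29.4 percentage points and the Ighv1 share one of 30.4 percentage points between the same differences. Without Ighv2-3 the polyp differences of all 3 values changed sign. Without the most abundant segment of each library, the Ighv1 share was 49.2% in the KO non-polyp and 52.4% in the WT non-polyp library.

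Some named segments were called in opposite directions in the polyp and non-polyp genotype pairs, and the difference was not tested. All but Ighv11-2 met the naming rule that asks for opposite calls, so their opposite calls follow from it. In the polyp pair 90 of the 93 segments at 1 TPM or more were called higher, against 14.7% of all gene names at that level. The log2 ratio in the polyp pair less that in the non-polyp pair was 5.21 for Ighv10-3, 4.86 for Ighv1-59, 4.24 for Ighv1-85, 4.07 for Ighv5-16, 3.62 for Ighv1-77 and 3.04 for Ighv11-2. All but Ighv1-77 were listed at 0 in the WT polyp library.

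Beside the reference genes, the assembler had listed loci without a gene name in the stretch of the V segments. Most of them overlapped V segments, and some repeated a segment's own value, as with Ighv9-3 in the KO polyp library (272 TPM in both). In the KO polyp library 9 of these loci spanned 2 or more segments, against 0 in the WT polyp and 6 in the WT non-polyp library.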

How the results depend on the processing

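No paired analysis was possible because each group has 1 library. Values were set beside the reported ones and counted as moved when they differed by over 1.5 times. With a pseudocount of 0.1 TPM, 41 segments were higher and 22 lower in the KO non-polyp than in the WT non-polyp library. With it 4 were higher in WT polyps than in WT non-polyp tissue. Lower in the KO polyp than in the KO non-polyp library were 9. With a pseudocount of 5 TPM, 56 were higher in the KO polyp than in the WT polyp library. It left 17 higher and 3 lower in the KO non-polyp than in the WT non-polyp library. In the WT polyp library 0 were higher and 27 lower than in the WT non-polyp library. Higher in the KO polyp than in the KO non-polyp library were 30. A minimum of 5 TPM left 59 higher in the KO polyp than in the WT polyp library, 6 lower in the KO non-polyp library, and 0 higher and 27 lower in the WT polyp than in the WT non-polyp library. Counted at 0.1 TPM, 41 segments were present in the WT polyp library, and at 5 TPM 60 in the KO polyp, 1 in the WT polyp, 36 in the KO non-polyp and 28 in the WT non-polyp library. Median-of-ratios scaling shifted the KO polyp over WT polyp ratio by 0.11 and the WT polyp over WT non-polyp ratio by -0.20 (log2). Under it 5 segments of the WT polyp library reached 1 and 0 were higher there than in WT non-polyp tissue. As FPKM, a smaller unit, the sums were 973 in the KO polyp, 20.7 in the WT polyp and 263 in the WT non-polyp library, 2 segments of the WT polyp library reached 1, and 0 were higher there than in WT non-polyp tissue. Without its most abundant segment, which is Ighv2-3, the WT polyp library had an effective number of 23.2, an Ighv1 share of 54.0% and a sum of 27.7 TPM. Of 540 ratios of named segments under pseudocounts and scalings, 516 kept their side of the threshold, 17 lost and 7 gained a call, and 0 reversed; scaling alone changed 1, Ighv9-2 in WT mice (0.95). Apart from the unit, the pseudocounts and minimums and the segments left out, the cause of these changes was not tested. The low Ighv signal of the WT polyp library limits its values.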

Other observations

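Assembled loci over the V segments, which were left out of the Ighv values, summed to 2143 TPM in the KO polyp library, 41.9 in the WT polyp library and 570 in the WT non-polyp library. There were 102, 26 and 77 of them in that order, of which 97, 23 and 73 overlapped a V segment. Their sums are therefore not to be added to the Ighv sums given above. The longest reached 370 kb in the KO polyp library and covered 28 segments, against 1.42 kb over 1 segment in the WT polyp and 295 kb over 15 segments in the WT non-polyp library. Although the V segments lie on the minus strand, 7 loci of the KO polyp library were placed on the plus strand, with 74.9 TPM in all, and 1 locus each in the WT polyp and the WT non-polyp library, with 0.246 and 5.99 TPM.

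Among J segments, Ighj4 was at 18.4 TPM in the WT polyp library, where Ighj1, Ighj2 and Ighj3 were at 3.96, 4.16 and 2.10 TPM. In the KO polyp library Ighj3 was the highest, at 415 TPM, against 247 for Ighj1, 171 for Ighj2 and 267 for Ighj4.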
